A study of Mus musculus with 6 samples.

Results

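The proteasome genes of epididymal white adipose tissue (eWAT) were compared between wild-type (WT) and RFP KO mice, all of them on a high-fat diet (HFD). Members were the protein-coding genes whose symbol begins with Psma to Psmg followed by a digit and that had 60 or more counts summed over all libraries. Of 40213 genes in the table, 51 protein-coding genes had such a symbol and 50 passed the minimum. Psmb11, the thymic catalytic subunit, had 6 counts and fell outside it, whereas Psma8 with 101 counts and Psmc3ip with 191 counts were the lowest inside. The 50 genes comprised 15 subunits of the 20S core (8 alpha, 7 beta), 3 immune beta subunits, 20 genes of the 19S class (6 ATPases, 14 others), 6 genes of the Psme family, 5 assembly and inhibitor genes, and Psmc3ip. The 19S class was set by the symbols Psmc and Psmd. It therefore included assembly chaperones such as Psmd5 and Psmd10 beside the subunits of the particle. Psmc3ip is a meiotic recombination factor that carries the symbol without being a proteasome subunit, and it was kept out of the class values.

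The tissue came from male mice, 3 WT-HFD and 3 RFP KO-HFD, with 1 library per mouse. RFP is encoded by Trim27. The WT animals were littermates of the RFP KO mice, both genotypes were 8 to 10 weeks old when the 60% fat diet began, and the sequencing methods give 12 weeks of diet. The KO is global, not restricted to adipocytes, and only HFD groups are analysed here, so each value below is a genotype difference on HFD. Although the labels give the cell type as adipocyte, the sequenced material was whole eWAT.

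The proteasome degrades proteins that carry ubiquitin chains. Its 20S core is a barrel in which 3 beta subunits, encoded by Psmb5, Psmb6 and Psmb7, cut the chain, and the 19S particle recognizes, unfolds and feeds the substrate. In cells exposed to interferon gamma, and constitutively in many leukocytes, the immune subunits encoded by Psmb8, Psmb9 and Psmb10 take the places of Psmb5, Psmb6 and Psmb7 in newly made cores, and the PA28 activator encoded by Psme1 and Psme2 can cap the core. The resulting immunoproteasome is best known for making peptides for MHC class I presentation. RFP itself is an E3 ubiquitin ligase, an enzyme that attaches ubiquitin to proteins.

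The promoters below are shown because their genes, Psmb8, Psmb9 and Psme1, were the members with every RFP KO-HFD library above every WT-HFD library. Each window runs from 250 bases before to 50 bases after the gene start in RefSeq on GRCm38.p6, written 5′ to 3′ on the gene's strand. Capitals mark matches, on either strand, to the interferon-stimulated response element (ISRE, GAAANNGAAA), the gamma-activated site (GAS, TTCNNNGAA) or the CCAAT box (CCAAT), and overlaps between motifs were not removed. The windows are chr17:34197945-34198244 on the plus strand for Psmb8, chr17:34187281-34187580 on the minus strand for Psmb9 and chr14:55578244-55578543 on the plus strand for Psme1.
Psmb8: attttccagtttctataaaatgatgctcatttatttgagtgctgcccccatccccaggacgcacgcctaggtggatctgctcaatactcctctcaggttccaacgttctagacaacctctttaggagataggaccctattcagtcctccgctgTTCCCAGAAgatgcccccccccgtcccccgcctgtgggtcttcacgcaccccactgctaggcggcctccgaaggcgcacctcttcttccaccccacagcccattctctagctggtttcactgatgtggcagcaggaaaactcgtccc
Psmb9: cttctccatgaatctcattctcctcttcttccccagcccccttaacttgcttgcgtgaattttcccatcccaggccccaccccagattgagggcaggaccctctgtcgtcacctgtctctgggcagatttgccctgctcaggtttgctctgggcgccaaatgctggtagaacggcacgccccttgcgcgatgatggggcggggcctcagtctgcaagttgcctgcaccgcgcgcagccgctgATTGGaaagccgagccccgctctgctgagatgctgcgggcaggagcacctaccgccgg
Psme1: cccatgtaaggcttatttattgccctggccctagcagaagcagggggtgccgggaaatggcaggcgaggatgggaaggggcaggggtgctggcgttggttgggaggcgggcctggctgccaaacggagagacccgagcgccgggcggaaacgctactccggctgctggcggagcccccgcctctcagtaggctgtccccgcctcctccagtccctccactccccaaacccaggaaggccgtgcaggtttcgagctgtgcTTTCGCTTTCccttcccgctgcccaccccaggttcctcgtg
Psmb8 held 1 GAS match, TTCCCAGAA, and Psme1 held 1 ISRE match, read here as its reverse complement TTTCGCTTTC. Psmb9 held neither and had a CCAAT box read as ATTGG. Of 32851 promoter windows in the RefSeq table, 3.44% held the ISRE letters, 8.3% the GAS letters and 37.4% the CCAAT letters. Windows were matched for 42 of the 50 proteasome genes, 46 windows in all, of which 5 (10.9%) held ISRE, 3 (6.52%) GAS and 15 (32.6%) CCAAT. The ISRE windows were those of Psmb3, Psmd4, Psmd9, Psmg4 and Psme1, and the GAS windows those of Psmb8, Psmd2 and Psmg1. Of these genes, only Psme1 and Psmb8 are among those printed above. The antioxidant response element TGANNNNGC, which factors such as Nfe2l1 use at proteasome genes, matched 26 of the 46 windows (56.5%) and 41.3% of all windows. By the gene positions in the table (GRCm39 according to its information sheet), Psmb9 (chr 17, 34401006 to 34406347, minus strand) and the peptide transporter gene Tap1 (34406530 to 34416199, plus strand) start 183 bp apart on opposite strands. Psmb8 (34417169 to 34420428) lies just beyond Tap1.

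The total count per library was 13309044 to 17215047, except for 4870239 in the library labelled RFP KO-HFD 1, where 6 of the 50 genes had no count. Levels are given as CPM, each count scaled to a common library size after TMM normalization. Trim27 measured 22.6, 40.1 and 29.3 CPM in WT-HFD and 19.3, 4.08 and 4.61 CPM in RFP KO-HFD, so the library labelled RFP KO-HFD 1 did not show the loss seen in the other 2 (log2 fold change -1.72, adjusted p = 0.760, edgeR). It held no counts of the adipocyte genes Adipoq and Plin1 and stood apart in several marker lists. The 8 hepatocyte markers summed to 186 to 453 CPM in WT-HFD and to 21748, 1731 and 4037 CPM in RFP KO-HFD. Markers of epididymal epithelium summed to 941 CPM in WT-HFD 2, and those of male germ cells to 477 CPM in RFP KO-HFD 2. The genes described in full are therefore given library by library, and the main values also without the library labelled RFP KO-HFD 1. In bulk tissue, fewer cells of a type and less RNA per cell cannot be told apart.

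All 50 proteasome genes passed the filter on low counts and were tested among 14706 genes with edgeR's quasi-likelihood test. None of them passed an adjusted p of 0.05, and neither did any other gene (0%). At an unadjusted p under 0.05, 3 proteasome genes were higher in RFP KO-HFD (Psmb9, Psmb8, Psme1), against 4.05% of all genes (595), and 2 were lower (Psmb7, Psmd6), against 2.7% of all genes (397). In either direction these were 5 of the 50 genes (10%), against 6.75% of all genes, so the shares lay near the background. DESeq2 called 2 at an adjusted p under 0.05, Psmb9 higher and Psmb7 lower, where it called 313 genes (2.13%) higher and 175 (1.19%) lower. At an unadjusted p under 0.05 it gave 3 higher and 4 lower, against 6.3% and 5.64% of all genes. Limma-voom with a quality weight per library called 3 higher (Psmb9, Psmb8, Psme1) against 4.09% of all genes and 6 lower (Psmd14, Psma1, Psme4, Psmb7, Psmd6, Psma3) against 2.97%. Without the library labelled RFP KO-HFD 1, edgeR gave 8 higher and 11 lower at an unadjusted p under 0.05, where all genes gave 12.1% and 12.6%. At the adjusted threshold it gave 0 of the 50, against 2 higher (0.0128%) and 0 lower among all genes.

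Counts at an unadjusted p under 0.05 also varied with the other libraries, for the proteasome genes and for all genes. Without WT-HFD 1, 2 or 3 in turn, 1 proteasome gene was higher each time, against 1.85%, 2.31% and 1.82% of all genes, and 0 were lower, against 1.08%, 1.97% and 1.2%. Without RFP KO-HFD 2, 3 were higher and 1 was lower, against 5.32% and 7% of all genes. Without RFP KO-HFD 3, 2 were higher and 0 lower, against 4.61% and 2.16%. With WT-HFD 2 left out together with the library labelled RFP KO-HFD 1, 11 were higher and 11 lower, against 14.7% and 17%. With the replicate number as a block, 1 was higher and 0 were lower, against 1.41% and 1.26%.

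The summed level of the 50 genes was 4157, 4326 and 4206 CPM in WT-HFD and 3314, 4273 and 4979 CPM in RFP KO-HFD. On this TMM scale the RFP KO-HFD values lay on both sides of the WT-HFD values. As a percentage of the library total, the 50 genes made up 0.466, 0.502 and 0.470 in WT-HFD. In RFP KO-HFD they made up 0.338, 0.421 and 0.341, all below WT-HFD. Of the protein-coding counts they made up 0.488, 0.529 and 0.493% against 0.387, 0.490 and 0.482%. The TMM factor was 0.685 in RFP KO-HFD 3, where 70.8% of counts were protein-coding, against 94.8 to 95.6% in WT-HFD. The median log2 fold change was -0.04 over the 50 genes, with 27 of them (54%) below 0, and -0.13 over all genes tested, with 56% below 0. By class it was -0.03 for the 20S core, -0.28 for the 19S class with its chaperones, 0.30 for the Psme genes and 1.06 for the immune subunits. With the library labelled RFP KO-HFD 1 left out, these medians were -0.13, -0.092, 0.12 and 0.76, and 11 of the 50 genes turned their sign. With library totals in place of TMM, the median moved from -0.13 to -0.50 over all genes tested and from -0.04 to -0.41 over the 50 genes. With that scaling 43 of the 50 genes were below 0. The share of all genes below 0 under it is not given here.

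**Figure D1:**
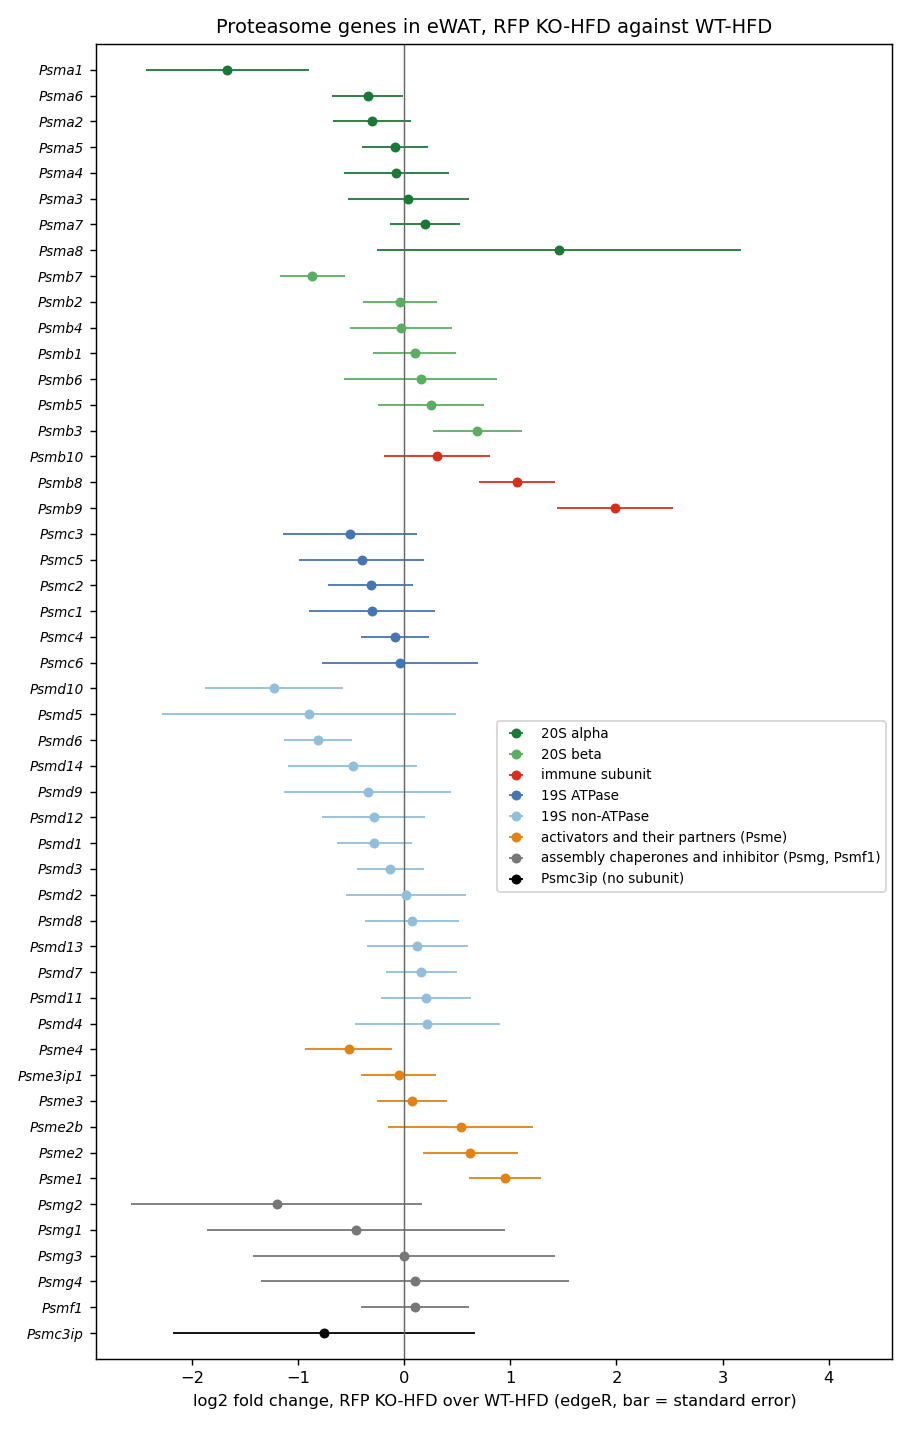
Log2 fold change of each proteasome gene, RFP KO-HFD over WT-HFD (horizontal axis, edgeR), with its standard error as a bar and 1 row per gene, grouped and coloured by class. Psmb9 (1.99) and Psmb8 (1.06) lie to the right of the other beta subunits, and Psmb7 (-0.86), Psmd6 (-0.81) and Psma1 (-1.66) to the left of 0, whereas wide bars mark genes that lacked counts in 1 of the libraries.

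The immune subunits Psmb8 and Psmb9 lay above WT-HFD in every RFP KO-HFD library, whereas Psmb10 did so in 2 of 3. Psmb9, which takes the place of Psmb6, measured 12.0, 12.9 and 14.4 CPM in WT-HFD and 91.4, 31.3 and 33.6 CPM in RFP KO-HFD. All 3 RFP KO-HFD libraries were above all 3 WT-HFD libraries, and the library labelled RFP KO-HFD 1 was the highest. The means were 13.1 ± 1.19 and 52.1 ± 34.1 CPM (SD, n = 3), a 3.97-fold ratio of means, or 2.47-fold without that library. The log2 fold change was 1.99 with a standard error of 0.545 (adjusted p = 0.599, edgeR). It ranged from 1.28 to 2.26 over the 17 alternatives, stayed at an unadjusted p under 0.05 in all of them, and had an adjusted p under 0.05 in 3 of them, the lowest being 0.0209.

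Psmb8, which takes the place of Psmb5, measured 55.0, 59.0 and 56.6 CPM in WT-HFD and 162.3, 87.8 and 106.5 CPM in RFP KO-HFD. The genotypes did not overlap here either, and the library labelled RFP KO-HFD 1 was again the highest. The means were 56.9 ± 1.99 and 118.9 ± 38.8 CPM (SD, n = 3), a 2.09-fold ratio, or 1.71-fold without that library. The log2 fold change was 1.06 with a standard error of 0.359 (adjusted p = 0.644, edgeR). Without the library labelled RFP KO-HFD 1 it was 0.76 for Psmb8 (adjusted p = 0.102) and 1.29 for Psmb9 (adjusted p = 0.0709). Non-overlap with RFP KO-HFD above was found for 3 of the 50 proteasome genes (Psmb8, Psmb9, Psme1) and for 7.28% of all genes tested.

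Psmb10, which takes the place of Psmb7, measured 52.8, 51.8 and 59.4 CPM in WT-HFD and 28.2, 73.0 and 102.1 CPM in RFP KO-HFD. The library labelled RFP KO-HFD 1 was below WT-HFD and the other 2 were above it. Its log2 fold change was 0.31 with a standard error of 0.503 (adjusted p = 0.957, edgeR), and 0.66 without that library (adjusted p = 0.147). With library totals the sign turned to -0.12, and without RFP KO-HFD 3 to -0.14. Per kilobase of transcript, WT-HFD levels were 34.9 CPM/kb for Psmb8, 9.71 for Psmb9 and 41.7 for Psmb10, and RFP KO-HFD levels were 73.0, 38.5 and 51.7. Psmb9 was therefore the lowest of the 3 per length in WT-HFD, as it was in the RFP KO-HFD means.

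Leukocytes carry much of the immunoproteasome in a tissue, so their markers are set beside these values. Ptprc, the pan-leukocyte gene, measured 14.4 to 35.3 CPM in WT-HFD, 251.3 CPM in the library labelled RFP KO-HFD 1, and 16.7 and 31.6 CPM in the other 2. The 8 macrophage and leukocyte markers summed to 831 to 2193 CPM in WT-HFD and 496 to 771 CPM in RFP KO-HFD, and 7 of the 8 had a log2 fold change below 0. The 8 lymphocyte markers summed to 8.67 to 32.8 CPM in WT-HFD and 6.69 to 29.2 CPM in RFP KO-HFD, with 6 of the 8 at 0 in the library labelled RFP KO-HFD 1. The other 2 were at their highest in that library, Cd8a of cytotoxic T cells with 23.96 CPM (0.709 to 2.32 in WT-HFD) and Ms4a1 of B cells with 5.24 CPM (0 to 0.624 in WT-HFD). The part of leukocytes and other cell types in the levels of Psmb8 and Psmb9 was not tested for any of the 3 RFP KO-HFD libraries.

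**Figure D2:**
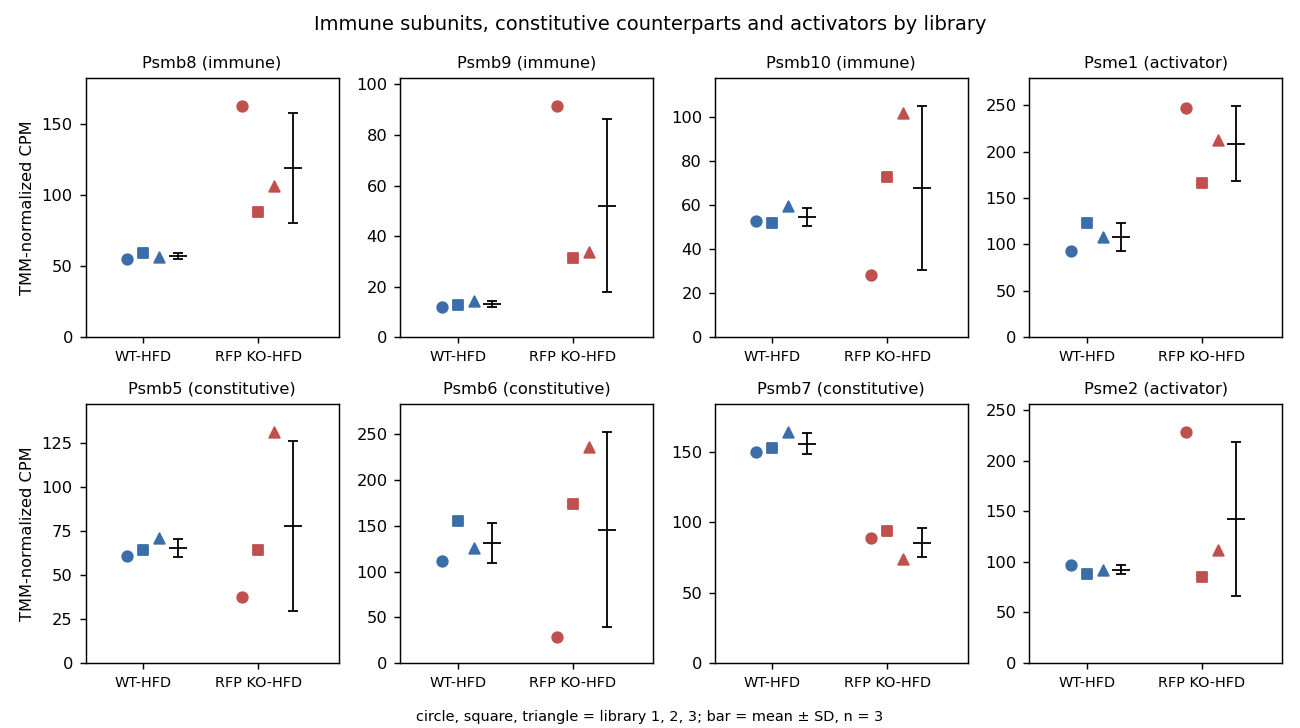
TMM-normalized CPM (vertical axis, from 0) of the immune subunits, their constitutive counterparts and the PA28 genes in each library, with symbols for library 1, 2 and 3 and a bar for the mean ± SD of 3 libraries. Psmb8, Psmb9 and Psme1 in RFP KO-HFD lie above WT-HFD in every library, Psmb7 lies below in every library (74.2 to 93.9 against 150.0 to 164.0 CPM), and the other 4 genes overlap.

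Among the constitutive catalytic subunits, Psmb7 was the one that separated the genotypes. It measured 150.0, 152.7 and 164.0 CPM in WT-HFD and 88.4, 93.9 and 74.2 CPM in RFP KO-HFD. Every RFP KO-HFD library was below every WT-HFD library, with a narrow spread in both. The log2 fold change was -0.86 with a standard error of 0.306 (adjusted p = 0.670, edgeR). It was -0.90 without the library labelled RFP KO-HFD 1 (adjusted p = 0.0958), and DESeq2 gave an adjusted p of 0.0283.

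Psmb5, whose product has the chymotrypsin-like site, measured 60.6, 64.1 and 70.9 CPM in WT-HFD and 37.5, 64.1 and 131.1 CPM in RFP KO-HFD. Psmb6, whose product has the caspase-like site, measured 111.9, 155.4 and 126.1 CPM in WT-HFD and 28.0, 173.4 and 236.3 CPM in RFP KO-HFD. For both genes the RFP KO-HFD libraries spread over a wider range that enclosed all 3 WT-HFD libraries. The log2 fold changes were 0.25 and 0.15 (adjusted p = 0.963 and 0.986, edgeR), and both turned negative with library totals (-0.21 and -0.30). They were 0.57 and 0.63 when the library labelled RFP KO-HFD 1 was left out.

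The ratio of an immune subunit to the subunit it replaces does not depend on the scaling of a library. It is a ratio of counts not corrected for length, so it compares libraries and not the abundance of the 2 subunits. Psmb9 to Psmb6 was 0.108, 0.0833 and 0.114 in WT-HFD, against 3.26, 0.180 and 0.142 in RFP KO-HFD. All 3 RFP KO-HFD libraries were above WT-HFD, with a mean difference of 2.11 on the log2 scale that was 0.67 without the library labelled RFP KO-HFD 1. An exact two-sided permutation test gave p = 0.1, the smallest value that 3 against 3 libraries allow, and 0.3 after adjustment over the 3 ratios.

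Psmb8 to Psmb5 was 0.908, 0.920 and 0.799 in WT-HFD, against 4.32, 1.37 and 0.813 in RFP KO-HFD. Here 2 of 3 RFP KO-HFD libraries were above WT-HFD and RFP KO-HFD 3 fell within its range (difference 0.95 on the log2 scale, or 0.27 without the library labelled RFP KO-HFD 1, exact permutation p = 0.3, adjusted 0.4). Psmb10 to Psmb7 ranged from 0.340 to 0.363 in WT-HFD and was 0.32, 0.777 and 1.38 in RFP KO-HFD. The library labelled RFP KO-HFD 1 was below WT-HFD and the other 2 were above (difference 0.99 on the log2 scale, or 1.56 without that library, exact permutation p = 0.4, adjusted 0.4). None of the 3 ratios could reach 0.05 in this design.

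**Figure D3:**
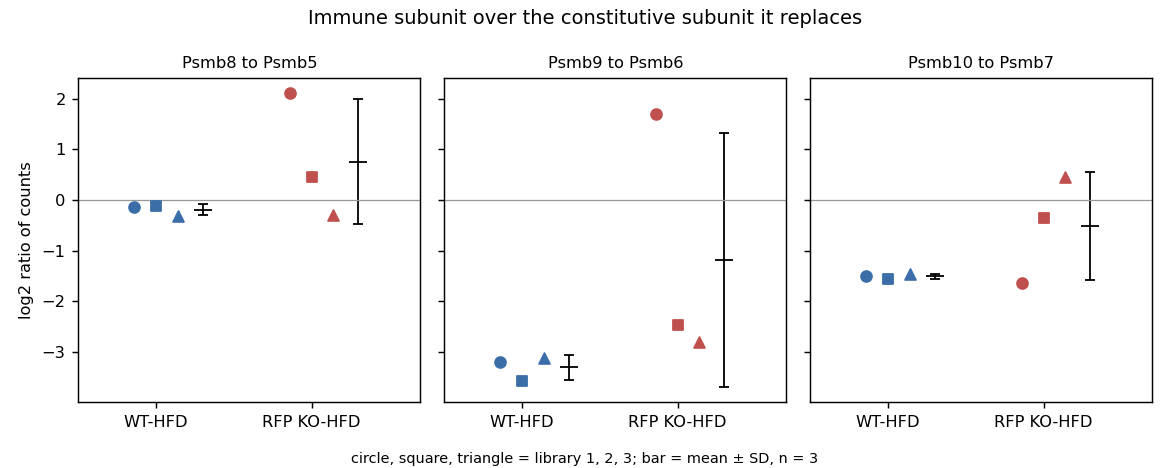
Log2 ratio of counts (vertical axis) of each immune subunit to the constitutive subunit it replaces, with 1 symbol per library and bars for the mean ± SD of 3 libraries. Only Psmb9 to Psmb6 has all 3 RFP KO-HFD libraries above WT-HFD, whereas the library labelled RFP KO-HFD 1 lies far from the other 2 in every panel.

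Psme1 and Psme2 encode the alpha and beta chains of the PA28 ring and lie near each other on chr 14, and only Psme1 separated the genotypes. Psme1 measured 93.1, 123.6 and 108.3 CPM in WT-HFD and 247.1, 166.7 and 212.9 CPM in RFP KO-HFD. Every RFP KO-HFD library was above every WT-HFD library, and the order did not rest on 1 library. The means were 108.3 ± 15.2 and 208.9 ± 40.3 CPM (SD, n = 3), a 1.93-fold ratio, or 1.75-fold without the library labelled RFP KO-HFD 1. Its log2 fold change was 0.95 with a standard error of 0.339 (adjusted p = 0.670, edgeR), and 0.80 without that library (adjusted p = 0.120). It ranged from 0.61 to 1.11 over the 17 alternatives and had an unadjusted p under 0.05 in 10 of them. The lowest value was that with library totals (unadjusted p = 0.155, edgeR).

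Psme2 measured 96.6, 88.3 and 92.4 CPM in WT-HFD and 228.8, 85.6 and 112.2 CPM in RFP KO-HFD. The library labelled RFP KO-HFD 1 was high, RFP KO-HFD 3 was above WT-HFD and RFP KO-HFD 2 was below it. Its log2 fold change was 0.62 (adjusted p = 0.880, edgeR), falling to 0.082 when the library labelled RFP KO-HFD 1 was left out. Psme2b, a Psme2 copy that may share reads with it, had a log2 fold change of 0.53.

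Psme3 encodes PA28 gamma, a nuclear activator. It measured 83.1, 68.7 and 76.1 CPM in WT-HFD and 59.6, 86.4 and 93.5 CPM in RFP KO-HFD, on both sides of WT-HFD. Its log2 fold change was 0.07 (adjusted p = 0.986, edgeR), or 0.23 without the library labelled RFP KO-HFD 1, and turned to -0.30 with library totals. Psme4 encodes PA200, an activator with a role in histone degradation. It measured 86.2, 52.8 and 89.0 CPM in WT-HFD and 74.9, 40.9 and 43.0 CPM in RFP KO-HFD (log2 fold change -0.52, adjusted p = 0.898, edgeR, or -0.88 when the library labelled RFP KO-HFD 1 was left out). WT-HFD 2 was the lowest WT-HFD library, and RFP KO-HFD 2 and 3 were both below it. Psme3ip1, a partner of PA28 gamma, had a log2 fold change of -0.05. The median of the Psme genes, 0.30, was 0.35 without Psme2b and Psme3ip1 and -0.05 with library totals.

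The alpha subunits form the outer rings of the core, and 5 of the 8 had a log2 fold change below 0. Psma1 showed the lowest, -1.66 with a standard error of 0.765 (adjusted p = 0.767, edgeR). It measured 97.8, 67.1 and 96.1 CPM in WT-HFD and 5.03, 48.8 and 28.2 CPM in RFP KO-HFD. All 3 RFP KO-HFD libraries were below WT-HFD, the library labelled RFP KO-HFD 1 far below, and without it the log2 fold change was -1.19 (adjusted p = 0.122).

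Psma6 measured 140.4, 139.2 and 136.5 CPM in WT-HFD and 81.0, 133.1 and 114.0 CPM in RFP KO-HFD. It was below WT-HFD in all 3 RFP KO-HFD libraries, by little in RFP KO-HFD 2 (log2 fold change -0.34, adjusted p = 0.925, edgeR, and -0.18 with the library labelled RFP KO-HFD 1 left out). Relative to their WT-HFD means on the log2 scale, 6 of the 8 alpha genes were below 0 in RFP KO-HFD 2, all 8 in RFP KO-HFD 3 and 3 in the library labelled RFP KO-HFD 1. Of all 14706 genes tested, 7525, 8180 and 9947 were below 0 in these libraries, in the same order. Psma2 (-0.30), Psma5 (-0.09), Psma4 (-0.07), Psma3 (0.04) and Psma7 (0.19) had smaller fold changes. Psma8, the alpha subunit of the testis, measured 0.57 to 1.25 CPM in WT-HFD, 7.85 CPM in the library labelled RFP KO-HFD 1, 0.51 CPM in RFP KO-HFD 2 and 0 in RFP KO-HFD 3. It was thus not high in RFP KO-HFD 2, the library with the germ cell markers.

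The 4 structural beta subunits had log2 fold changes from -0.04 (Psmb2) to 0.69 (Psmb3). Psmb3 measured 44.0, 58.0 and 62.8 CPM in WT-HFD and 55.2, 82.0 and 128.7 CPM in RFP KO-HFD, so that RFP KO-HFD 2 and 3 were above WT-HFD while the library labelled RFP KO-HFD 1 was within it (adjusted p = 0.836, edgeR, and log2 fold change 0.92 without that library). Psmb1 measured 102.7, 105.9 and 95.4 CPM in WT-HFD and 62.4, 130.4 and 132.6 CPM in RFP KO-HFD, on both sides of WT-HFD. Its log2 fold change was 0.10 (adjusted p = 0.983, edgeR), or 0.36 with the library labelled RFP KO-HFD 1 left out, and turned to -0.28 with library totals. Psmb4 had a log2 fold change of -0.03. The alpha and the beta genes moved to different sides in RFP KO-HFD 3, with medians of -0.52 and 0.41 relative to the WT-HFD mean, and in RFP KO-HFD 2 with -0.35 and 0.25, whereas the library labelled RFP KO-HFD 1 had 0.33 and -0.79.

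**Figure D4:**
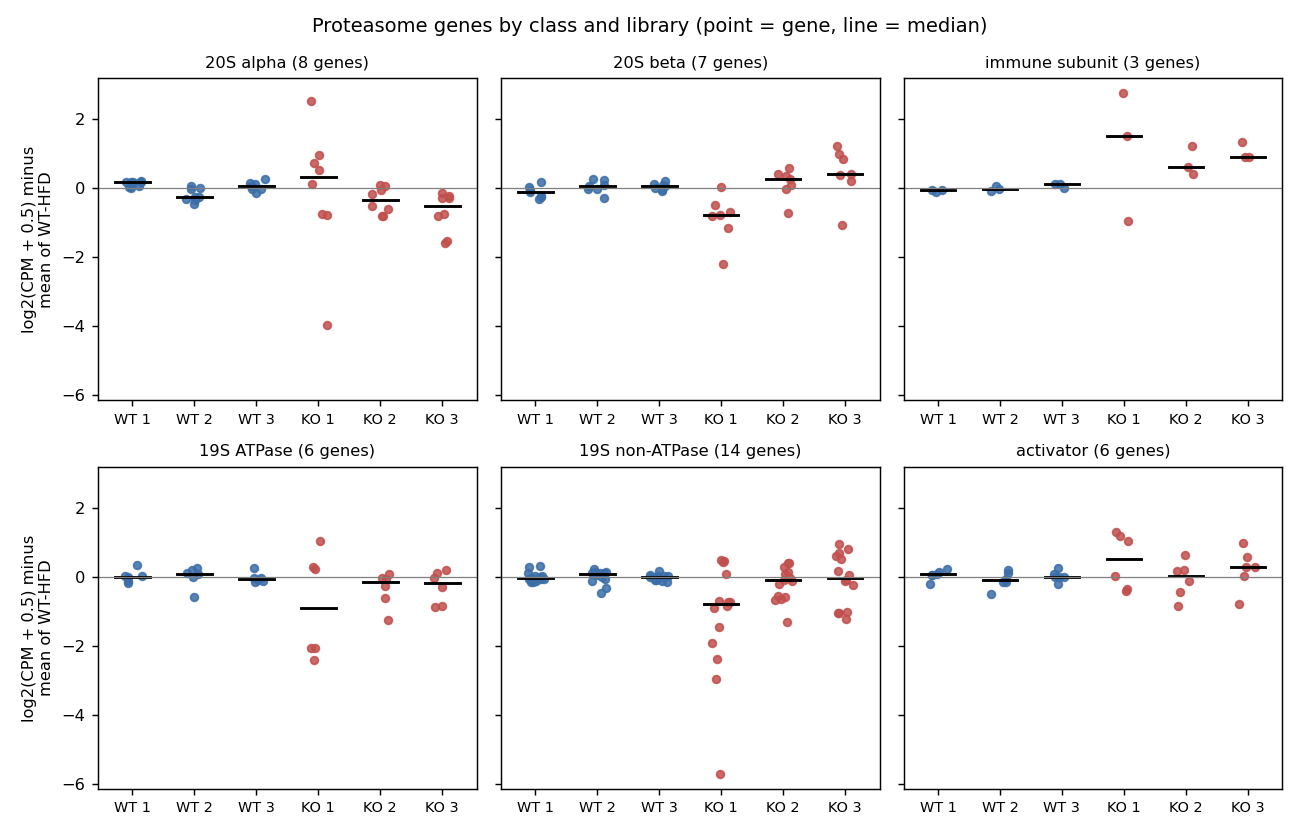
Difference of each gene from its WT-HFD mean, in log2(CPM + 0.5) (vertical axis), by library and class, with 1 point per gene and a line at the class median. In RFP KO-HFD 2 and 3 the immune subunits lie above 0 (medians 0.62 and 0.90) and the alpha subunits mostly below it, and the library labelled RFP KO-HFD 1 shows the widest spread in the alpha and 19S classes.

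The 6 ATPases of the 19S base, which unfold the substrate, all had a log2 fold change below 0, from -0.51 (Psmc3) to -0.04 (Psmc6). Psmc3 measured 173.9, 226.6 and 190.6 CPM in WT-HFD and 36.7, 188.1 and 189.8 CPM in RFP KO-HFD. Its fold change came mainly from the library labelled RFP KO-HFD 1, and RFP KO-HFD 2 and 3 were within the WT-HFD range (adjusted p = 0.942, edgeR, and log2 fold change -0.074 from those 2 against WT-HFD). Psmc2 measured 104.6, 113.3 and 96.0 CPM in WT-HFD and 126.3, 68.4 and 58.0 CPM in RFP KO-HFD. In that gene the library labelled RFP KO-HFD 1 was the highest of all and the other 2 were the lowest (log2 fold change -0.31, adjusted p = 0.945, edgeR, or -0.74 from the other 5 libraries). Psmc5 (-0.40), Psmc1 (-0.30) and Psmc4 (-0.09) also overlapped between the genotypes. The direction was not shared by every alternative, since 1 or more of them turned the sign of each ATPase gene other than Psmc2.

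Of the 14 other 19S genes, 8 had a log2 fold change below 0. Psmd6, a lid subunit, measured 67.9, 57.4 and 61.7 CPM in WT-HFD and 37.9, 39.3 and 29.7 CPM in RFP KO-HFD. Every RFP KO-HFD library was below every WT-HFD library with a similar spread (log2 fold change -0.81, standard error 0.32, adjusted p = 0.716, edgeR), and -0.87 once the library labelled RFP KO-HFD 1 was left out (adjusted p = 0.109). Psmd10, which encodes the chaperone gankyrin, measured 18.4, 20.6 and 18.2 CPM in WT-HFD and 3.22, 12.0 and 9.10 CPM in RFP KO-HFD. It was below WT-HFD in all 3 libraries as well (log2 fold change -1.22, adjusted p = 0.807, edgeR). Psmd5, a base chaperone, was the third of this class without overlap. It was among the 6 genes at 0 in the library labelled RFP KO-HFD 1 and measured 24.6 to 26.5 CPM in WT-HFD against 17.5 and 23.9 CPM in the other 2.

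Psmd14 encodes the deubiquitinase of the lid. It measured 47.4, 27.8 and 43.2 CPM in WT-HFD and 53.4, 15.4 and 16.1 CPM in RFP KO-HFD, the highest in the library labelled RFP KO-HFD 1 and the lowest in the other 2. It had a log2 fold change of -0.48 (adjusted p = 0.944, edgeR), and of -1.34 (adjusted p = 0.0961) without the library labelled RFP KO-HFD 1. By contrast, Psmd4, a ubiquitin receptor and the highest proteasome gene per length in WT-HFD (175 CPM/kb), measured 211.1, 253.0 and 236.2 CPM in WT-HFD and 61.8, 305.1 and 447.9 CPM in RFP KO-HFD. Its log2 fold change was 0.22 (adjusted p = 0.980, edgeR), or 0.68 without the library labelled RFP KO-HFD 1. Its sign turned with library totals (-0.24), limma-voom (-0.21), the replicate block (-0.16) and without RFP KO-HFD 3 (-0.38). Other genes of this class, 9 in number, ranged from -0.34 (Psmd9) to 0.20 (Psmd11).

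Psmg1 to Psmg4 encode chaperones that assemble the alpha ring, and Psmf1 encodes an inhibitor of the core. The 4 chaperone genes were all at 0 in the library labelled RFP KO-HFD 1, where 3 counts correspond to 0.616 CPM of the library total. Psmg2 measured 9.86 to 11.2 CPM in WT-HFD and 6.34 and 7.24 CPM in RFP KO-HFD 2 and 3, below WT-HFD in both (adjusted p = 0.942, edgeR). Psmg1 measured 19.8, 23.4 and 21.8 CPM in WT-HFD and 22.9 and 24.4 CPM in RFP KO-HFD 2 and 3, so its fitted log2 fold change of -0.45 turned to 0.11 without the library labelled RFP KO-HFD 1. Psmf1 had a log2 fold change of 0.11.

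Over all classes, 7 proteasome genes had every RFP KO-HFD library below every WT-HFD library (Psma1, Psma6, Psmb7, Psmd5, Psmd6, Psmd10, Psmg2), or 14%, against 16% of all genes tested. When only RFP KO-HFD 2 and 3 were set against WT-HFD, 16 proteasome genes (32%) were above and 18 (36%) below, against 21.5% and 24.7% of all genes tested. These shares describe 50 genes of common libraries and were not tested.

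The proteasome genes differed in base composition in a way that followed their differences in RFP KO-HFD 2 and 3. Across the 50 genes, the GC content of the principal transcript correlated with the log2 difference from WT-HFD, which was positive in RFP KO-HFD 2 (Pearson r = 0.686, Spearman rho = 0.675) and RFP KO-HFD 3 (0.687 and 0.697), but hardly in the library labelled RFP KO-HFD 1 (-0.088 and -0.126). The WT-HFD libraries deviated from their own mean with GC as well, with Pearson r of -0.729, 0.666 and -0.280. Over 13446 protein-coding genes tested, r was 0.253 in RFP KO-HFD 2, 0.135 in RFP KO-HFD 3, -0.208 in the library labelled RFP KO-HFD 1, and -0.270, 0.235 and -0.154 in the WT-HFD libraries. Genes are not independent replicates, and they share the library and its base composition, so these values are a description.

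Split at the median GC of 49.8%, the 25 proteasome genes above it had median differences of 0.18 and 0.41 in RFP KO-HFD 2 and 3, and the 25 at or below it -0.55 and -0.51. Over all protein-coding genes the same split gave 0.13 and 0.05 above and -0.29 and -0.35 below. Psmb8 (55.8%), Psmb9 (55.3%), Psmb10 (56.5%) and Psme1 (54.9%) were among the GC-rich genes, and Psmb7 (48.7%), Psmd6 (47.1%) and Psma1 (44.0%) among those at or below the median. The part of base composition in the genotype differences was not tested.

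**Figure D5:**
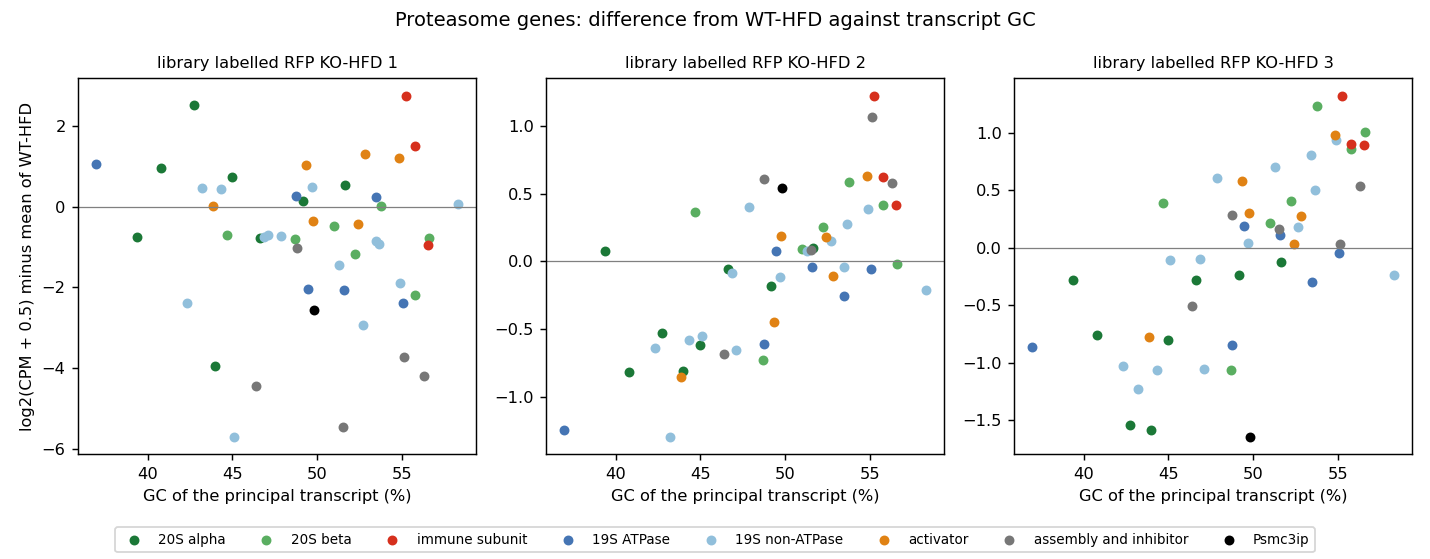
Difference of each proteasome gene from its WT-HFD mean in log2(CPM + 0.5) (vertical axis, scaled per panel) against the GC content of its principal transcript in percent (horizontal axis), 1 panel per RFP KO-HFD library, coloured by class. The points rise with GC in RFP KO-HFD 2 (r = 0.686) and RFP KO-HFD 3 (r = 0.687) and not in the library labelled RFP KO-HFD 1 (r = -0.088).

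Genes around the proteasome were described from 6 lists, none with a gene past the adjusted threshold. Of 11 tested interferon gamma regulators, 10 had a log2 fold change above 0 (median 1.13), with 3 higher and 1 lower at an unadjusted p under 0.05, against 4.05% and 2.7% of all genes. The median was 2.11 in the library labelled RFP KO-HFD 1 relative to the WT-HFD mean, but 0.31 and 0.54 in RFP KO-HFD 2 and 3, where 5 and 3 of the 11 lay below 0. Of all 14706 genes tested, 7525 and 8180 lay below 0 in RFP KO-HFD 2 and 3. Fitted without the library labelled RFP KO-HFD 1, 7 of the 11 were above 0 with a median of 0.31. Irf1, the factor that drives Psmb9 and Tap1 in response to interferon gamma, measured 25.1, 22.4 and 25.6 CPM in WT-HFD and 179.0, 31.2 and 127.0 CPM in RFP KO-HFD (log2 fold change 2.20, adjusted p = 0.599, edgeR). All 3 RFP KO-HFD libraries were above WT-HFD, RFP KO-HFD 2 by the least. Stat2, of the interferon signalling complex, measured 24.7, 21.7 and 24.6 CPM against 75.9, 36.6 and 42.6 CPM and did not overlap either (1.13, adjusted p = 0.681, or 0.73 without the library labelled RFP KO-HFD 1). Jak1, a receptor kinase of the same pathway, measured 197.6, 138.2 and 189.5 CPM against 48.1, 100.8 and 98.3 CPM, below WT-HFD in every library (-1.09, adjusted p = 0.702). Irf8, a factor of myeloid cells, measured 36.7 to 57.4 CPM in WT-HFD, 901.6 CPM in the library labelled RFP KO-HFD 1, and 46.3 and 87.9 CPM in the other 2.

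Of 11 genes of MHC class I antigen processing, 3 had a log2 fold change above 0 and 8 below (median -0.26). From the other 5 libraries, with the one labelled RFP KO-HFD 1 left out, 5 were above 0 and the median was -0.47. Tap1, the neighbour of Psmb9, measured 36.8, 47.1 and 48.8 CPM in WT-HFD and 160.7, 53.7 and 66.7 CPM in RFP KO-HFD, above WT-HFD in every library (1.08, adjusted p = 0.767, edgeR). The ratio of means was 2.12-fold, or 1.36-fold without the library labelled RFP KO-HFD 1 (log2 fold change 0.43). Tap2, its partner in the transporter, was 40.5 to 43.6 CPM in WT-HFD and 48.7 to 70.2 CPM in RFP KO-HFD (0.47, adjusted p = 0.877). Calr, a chaperone of MHC class I loading, was lower in every RFP KO-HFD library (-0.63, adjusted p = 0.845).

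Of 13 assembly and associated factors, 4 had a log2 fold change above 0 and 9 below (median -0.20, or -0.34 without the library labelled RFP KO-HFD 1). Usp14, the deubiquitinase bound to the 19S base, measured 43.5, 34.9 and 45.1 CPM in WT-HFD and 19.3, 21.3 and 21.2 CPM in RFP KO-HFD, without overlap (log2 fold change -0.997, adjusted p = 0.670, edgeR, and 0.0126 with DESeq2). Ecpas, a proteasome adaptor, was also below WT-HFD in every library (-0.86), and Ube3a, a ubiquitin ligase, was above it (0.95, or 0.47 without the library labelled RFP KO-HFD 1). Pomp, which matures the core, hardly differed (-0.03).

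Of 9 tested regulators of proteasome genes, 5 had a log2 fold change above 0 and 4 below (median 0.04, or 0.26 without the library labelled RFP KO-HFD 1). Nfe2l1, the factor that induces proteasome genes when the proteasome is impaired, measured 475.3, 366.5 and 458.1 CPM in WT-HFD and 91.6, 410.2 and 441.9 CPM in RFP KO-HFD. RFP KO-HFD 2 and 3 were within the WT-HFD range, below which lay the library labelled RFP KO-HFD 1. Ngly1, which deglycosylates the Nfe2l1 protein, Ddi2, the protease that cleaves it, and Maff, a small partner protein, had log2 fold changes of -1.28, 0.42 and 0.96 (-0.72, 0.71 and 1.44 without that library), with adjusted p from 0.911 to 0.948 (edgeR), and all 3 overlapped between the genotypes.

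Of 7 ubiquitin genes and activating enzymes, 6 had a log2 fold change above 0 (median 0.29). Ubb, a polyubiquitin gene, measured 863.2, 777.6 and 877.8 CPM in WT-HFD and 597.7, 1367.7 and 1912.7 CPM in RFP KO-HFD, with the library labelled RFP KO-HFD 1 below WT-HFD and the other 2 above it (0.62, adjusted p = 0.909, edgeR, and 0.95 without the former). Uba1, the main activating enzyme, and Rps27a, a ubiquitin fusion gene, had log2 fold changes of -0.51 and 0.29 (-0.21 and 0.14 without that library). Of 10 shuttle and segregase genes, 3 were above 0 and 7 below (median -0.44, or -0.24 without that library). Rad23b, a shuttle that carries ubiquitinated proteins to the proteasome, measured 159.5, 147.2 and 154.1 CPM in WT-HFD and 101.3, 95.6 and 88.8 CPM in RFP KO-HFD, without overlap (-0.69, adjusted p = 0.752, edgeR). Ubqln2, another shuttle, and Ufd1, a cofactor of the segregase Vcp, were below WT-HFD in every library too (-0.81 and -0.71).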

How the data were processed

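The authors deposited 1 table with a whole-number count per gene and library, which was used as it stood. Its columns of normalized log2 values, folds, p-values and q-values of the authors' own comparison were not used, and 0 per-sample count columns were left unmapped. According to the methods, poly(A)-selected CORALL libraries were read as paired ends of 100 bases, trimmed by Fastp, mapped by STAR and then counted by Salmon. The submitters' notes name FastQC, Trimmomatic, STAR and mm10, the table's information sheet names GRCm39, and versions are not given in the sources used here. Whether counting used strand is not given either. The Psme2b and Psme2 counts may share reads.

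Genes were filtered with filterByExpr (minimum count 10, minimum total 15), normalized by TMM and tested in edgeR 4.0.16 (R 4.3.3) with robust glmQLFit and glmQLFTest, no covariate beside genotype, and p-values adjusted by Benjamini-Hochberg over 14706 genes. Alternatives were limma-voom (3.58.1) in a plain and a quality-weighted form, DESeq2 1.42.0, other scalings and filters, protein-coding nuclear genes only, the replicate number as a block and libraries left out. Without the 2 partner and copy genes of the Psme family was an alternative chosen after seeing the data. Ratios used log2 of counts plus 0.5 (or 5) and exact two-sided permutation tests over libraries. CPM per kilobase and GC used the principal transcript of each gene in GENCODE M21, from which all 50 members had a value. The fit was checked on simulated counts with a common spread for all genes and no library set apart. That check does not cover the spread of the libraries analysed here. Figures were drawn with matplotlib 3.10.9.

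Named with full values were the 3 immune subunits, their counterparts, Psme1 to Psme4, the 2 members of smallest edgeR p in each other class, up to 3 of each related list, and Trim27. Psmd14, Psmd4, Psma8, Irf8, Nfe2l1, Pomp and the markers were chosen after their values were seen. The members and lists were chosen with earlier results of these data known. Paaf1 of the related lists was not analysed here. With 1 library per mouse, p-values measure the spread between these libraries.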

Additional observations from a re-analysis of the deposited data

How the results depend on the processing

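Genes past the adjusted threshold numbered 0 with edgeR, 488 with DESeq2, 1039 with limma-voom and quality weights, 507 without WT-HFD 2 and RFP KO-HFD 1 together, and 0 to 2 with 1 library left out. For proteasome genes these were 0, 2, 9, 3 and 0. Proteasome genes lower at an unadjusted p under 0.05 numbered 2 (2.7% of all genes), but 1 with upper-quartile factors (2.43%) and 4 with DESeq2 (5.64%). They numbered 12 with quality weights (15.3% of all genes), 11 without both libraries (17%) and 0 to 11 with 1 library left out (1.08% to 12.6%). Those higher numbered 3 (4.05% of all genes), but 1 with library totals (2.69%) and 9 with quality weights (12.7%). They numbered 11 without both libraries (14.7%) and 1 to 8 with 1 library left out (1.82% to 12.1%). With library totals, the median moved from -0.13 to -0.50 over all genes tested and from -0.04 to -0.41 over the proteasome genes. There 43 proteasome genes were below a log2 fold change of 0 in place of 27. The 20S core median was then -0.33 in place of -0.03 and the Psme median -0.051 in place of 0.30. The Psme median was 0.11 with limma-voom and 0.11 without both libraries. The cause was not tested.

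Signs turned with library totals for Psmb10 (-0.12), Psmb5 (-0.21), Psmb6 (-0.30), Psme3 (-0.30), Psmb1 (-0.28), Psmd4 (-0.24), Ddi2 (-0.054) and Rps27a (-0.0053), where the median over all genes tested moved from -0.13 to -0.50. They also turned below 0 for Psma3, Psma7, Psmd2, Psmd7, Psmd8, Psmd11, Psmd13, Psmf1, Psmg3 and Psmg4. With 1 library left out, values were lowest without RFP KO-HFD 3 and highest without RFP KO-HFD 1, at -0.14 to 0.66 for Psmb10, -0.39 to 0.57 for Psmb5, -0.41 to 0.63 for Psmb6, -0.086 to 0.23 for Psme3, -0.10 to 0.36 for Psmb1, -0.38 to 0.68 for Psmd4, -0.32 to 0.71 for Ddi2 and -0.94 to 0.11 for Psmg1. Psmb6 turned to -0.27 and Psmd4 to -0.21 with limma-voom, Psme3 to -0.017 without a filter and -0.016 without WT-HFD 2, Psmb1 to -0.017 without RFP KO-HFD 2, and Psmc3 to 0.042 without WT-HFD 2 and RFP KO-HFD 1 together. Psmg1 turned to 0.078 with quality weights, 0.11 without RFP KO-HFD 1 and 0.17 without both libraries. Psmb8, Psmb9, Psme1, Psmb7 and Psmd6 kept their sign in all 17 alternatives. So did Psma1, Psma2, Psma6, Psmb3, Psmc2, Psmd1, Psmd3, Psmd10, Psmd12, Psmd14, Psme2 and Psme4. A kept sign therefore did not set the former genes apart.

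Replicate numbers are shared between the groups, but the sample labels give no pairing of the mice. Same-numbered libraries correlated at 0.036, 0.040 and 0.076 in their deviations, each the highest for its RFP KO-HFD library. Differently numbered libraries correlated at -0.040 to -0.010. All these values were near 0, and the libraries were not taken as pairs. With the number as a block, 0 proteasome genes were lower and 1 (Psmb9) higher at an unadjusted p under 0.05, against 1.26% and 1.41% of all genes, and Psmb6 turned to -0.27 and Psmd4 to -0.16. With 4870239 counts in the library labelled RFP KO-HFD 1, a level under 0.616 CPM of the library total rested on fewer than 3 counts there.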
